A study of Mus musculus with 6 samples.

Results

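Transcripts of the machinery that releases calcium from the endoplasmic reticulum (ER) and refills it were examined in sorted mouse microglia, the resident macrophages of the brain. The genes were the 3 inositol trisphosphate (IP3) receptors Itpr1, Itpr2 and Itpr3, the store sensors Stim1 and Stim2, the plasma membrane channels Orai1, Orai2 and Orai3, and the ER calcium pumps Atp2a2 and Atp2a3. They were chosen by symbol, and all 10 were found among the 23930 genes of the authors' deposited table. Adult C57BL/6 mice received 4 injections spaced 2 h apart, either of methamphetamine at 5 mg/kg (Meth, 3 mice) or of saline (Saline, 3 mice). After perfusion, brain cells with CD11b, low CD45 and no CD206 were sorted, and their RNA was read with a panel of amplicons, 1 primer pair for each gene. How long after the last injection the brains were taken is not given in the sources used here. For each gene the table gives the average of each group as a log2 value, the fold between them with a sign, and p before and after adjustment for the false discovery rate (FDR). Values for single mice are not part of it. Neither their spread nor the sequencing depth can therefore be given, and the authors' p-values, whose model is not stated, are the measure of error behind the differences below. Folds rest on log2 values that appear to include an added 1, which understates the change of low genes. Some Saline averages lie below 0, which a mean of such values cannot, so the listed averages may be estimates of the authors' model rather than plain means of 3 mice, and this touches every level and share below.

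Receptors that signal through Gq or tyrosine kinases activate phospholipase C, which makes IP3, and IP3 opens its receptor channels in the ER membrane. As the store empties, the STIM proteins in that membrane sense the loss of lumenal calcium, gather near the plasma membrane and open ORAI channels, which is called store-operated calcium entry. SERCA pumps, encoded by the Atp2a genes, return calcium to the store. In microglia, metabotropic purinergic receptors are a well-known trigger of this pathway, and store-operated entry has been linked to migration, phagocytosis and cytokine release.

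None of the 10 genes was called different between Meth and Saline, a call being an FDR adjusted p under 0.05 in the authors' deposited table. Over all genes, 536 of 23930 (2.24%) were called. Of the 10375 genes that reached a log2 value of 1 in Meth or in Saline, which include all 10, 37 (0.357%) were called. At an unadjusted p under 0.05 the count among the 10 was also 0, where 2426 of all genes (10.1%) and 1520 of those 10375 (14.7%) passed in the authors' deposited table. For 10 genes a count of 0 lies near these background shares, and it does not show that the transcripts were alike in both groups. By direction, 6 of the 10 averages were higher in Meth and 4 lower, although the difference of Atp2a2 became 0.00 when centred on genes with an average of at least 3, and that of Stim1 became -0.025 with the trend in transcript GC content and length removed. The median of the log2 differences (Meth minus Saline) was 0.07, against 0.02 over the 10375 genes. The 10 differences ran from -1.07 for Itpr1 to 0.94 for Atp2a3.

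**Figure D1:**
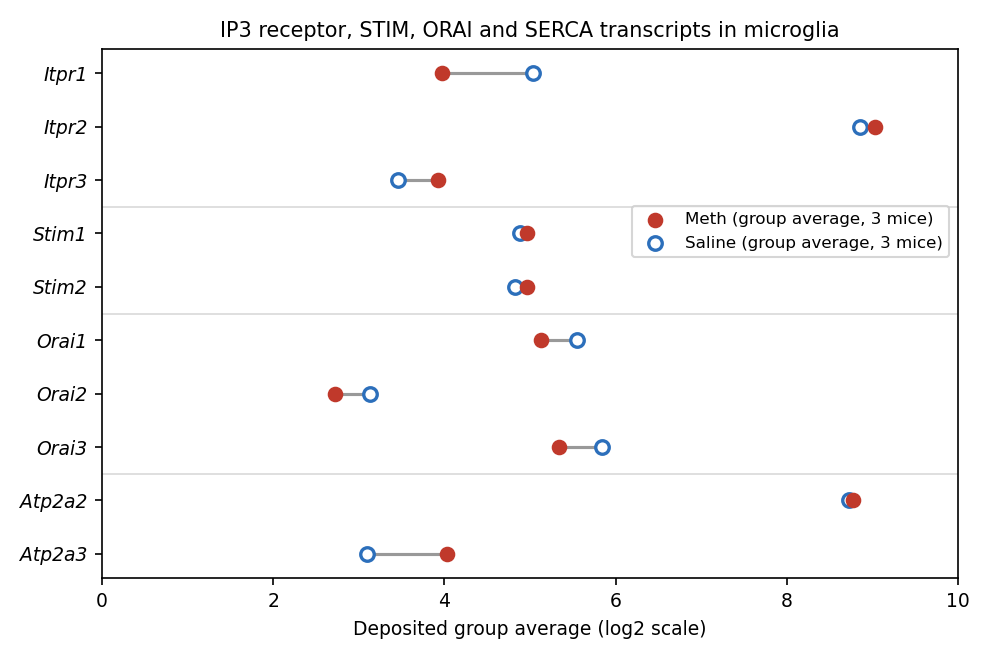
Deposited log2 group averages of the 10 genes, in rows by family, with Meth as filled and Saline as open circles joined by a line; each circle is the authors' deposited group average (3 mice per group), with no error available. Itpr2 and Atp2a2 stand between 8.73 and 9.03 in both groups, and the widest gap, 1.07, is that of Itpr1.

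The IP3 receptors form the release channel, and their 3 isoforms differ in affinity for IP3 and in tissue. Itpr2, the isoform with the highest affinity for IP3, averaged 9.03 on the log2 scale in Meth and 8.86 in Saline, by the authors' deposited table (1.13-fold higher, unadjusted p = 0.6444). Its mean level exceeded that of 97.5% of the 10375 genes. Itpr1, the isoform that predominates in neurons, was listed at 3.97 in Meth and 5.04 in Saline, by the authors' deposited table, a 2.09-fold lower value that missed the threshold (unadjusted p = 0.0905, adjusted p = 0.5765). Itpr3, the isoform typical of secretory epithelia, stood at 3.93 in Meth and 3.46 in Saline, by the authors' deposited table (1.39-fold higher, unadjusted p = 0.1215, adjusted p = 0.6258). Itpr1 and Itpr3 thus differed in opposite directions, neither past the threshold. That the 2 differences are unlike was not tested, since values per mouse would be needed.

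Converted to a linear scale, as 2 to the power of the average minus 1, Itpr2 came to 522 in Meth and 464 in Saline, in units read here as reads scaled to a fixed library total. On that scale Itpr1 came to 14.7 in Meth and 31.9 in Saline, and Itpr3 to 14.2 in Meth and 10 in Saline. Itpr2 made up 94.8% of the summed IP3 receptor value in Meth and 91.7% in Saline. The share of Itpr1 was 2.66% in Meth and 6.31% in Saline, and that of Itpr3 was 2.59% and 1.98%. The sum of the 3 was 551 in Meth and 506 in Saline, a ratio of 1.09. These shares depend on how well each primer pair amplifies, so they rank the isoforms only loosely. A difference in share between groups, or a ratio of family sums, also depends on it in size, even if primer efficiency is the same in all libraries. Only the ratio of 1 gene between groups is then free of it. There is 1 value per group, and no test of a share was possible.

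The STIM proteins sense the calcium level in the ER lumen, and Stim2 responds to smaller losses than Stim1. Stim1 averaged 4.97 on the log2 scale in Meth and 4.88 in Saline, by the authors' deposited table (1.07-fold higher, unadjusted p = 0.5772). For Stim2 the authors' deposited table gave 4.97 in Meth and 4.82 in Saline (1.11-fold higher, unadjusted p = 0.3742). Both differences were small beside those of other genes: of the genes whose mean level lay within 0.5 log2 units, 90.0% differed by at least as much as Stim1 in either direction and 83.0% by at least as much as Stim2. On the linear scale the sensors took equal shares in Meth (50.0% each), against 51.1% for Stim1 and 48.9% for Stim2 in Saline.

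The ORAI proteins form the pore of store-operated entry, and Orai1 carries the classical current of immune cells. All 3 averages were lower in Meth by a similar amount, none past the threshold. Orai1 was listed at 5.13 in Meth and 5.55 in Saline, by the authors' deposited table (1.34-fold lower, unadjusted p = 0.4909, adjusted p = 1). Orai2, whose subunits can join mixed channels and reduce the current, was at 2.72 in Meth and 3.13 in Saline, by the authors' deposited table (1.33-fold lower, unadjusted p = 0.3253, adjusted p = 0.9022). Orai3, a subunit found in mammals only, was at 5.34 in Meth and 5.84 in Saline, by the authors' deposited table (1.42-fold lower, unadjusted p = 0.4055, adjusted p = 0.9909). Summed on the linear scale, the 3 channels came to 79.1 in Meth and 109.9 in Saline, a ratio of 0.72. The make-up of the family was close in both groups, with Orai3 at 49.9% in Meth and 51.2% in Saline, Orai1 at 43.0% and 41.7%, and Orai2 at 7.06% in each.

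The SERCA pumps refill the store. Atp2a2, which encodes the housekeeping pump SERCA2, averaged 8.77 on the log2 scale in Meth and 8.73 in Saline, by the authors' deposited table (1.03-fold higher, unadjusted p = 0.8098), the smallest difference among the 10 genes. Atp2a3, which encodes SERCA3, a pump of lower calcium affinity found in blood, endothelial and epithelial cells, was listed at 4.03 in Meth and 3.09 in Saline, by the authors' deposited table (1.92-fold higher, unadjusted p = 0.151, adjusted p = 0.6613). This second-widest gap also missed the threshold. SERCA3 made up 3.40% of the summed pump value in Meth and 1.74% in Saline, and the sum was 451 in Meth and 431 in Saline. The third pump gene, Atp2a1, which is best known from fast skeletal muscle, was at 0.20 in Meth and 0.07 in Saline, by the authors' deposited table.

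**Figure D2:**
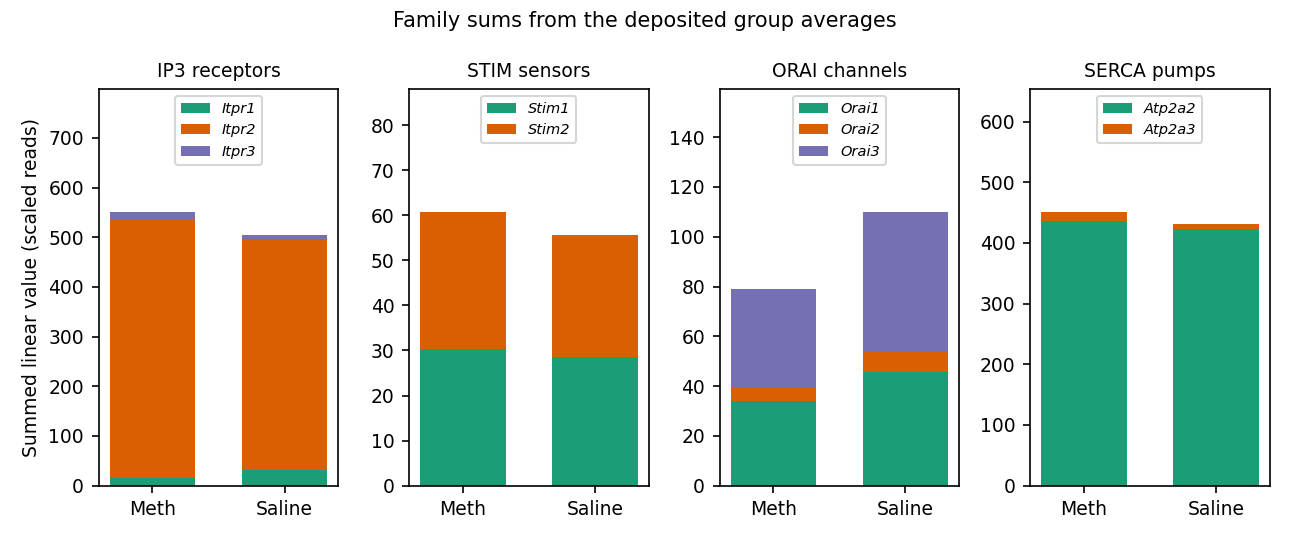
Summed linear values (2 to the power of the deposited log2 average, minus 1; vertical axes start at 0 and differ between panels) of the IP3 receptor, STIM, ORAI and SERCA genes, with Meth left of Saline and each colour 1 gene. Itpr2 and Atp2a2 fill most of their bars in both groups, and the ORAI bar is 79.1 in Meth and 109.9 in Saline.

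In the order of mean level the 10 genes ran Itpr2, Atp2a2, Orai3, Orai1, Stim1, Stim2, Itpr1, Itpr3, Atp2a3 and Orai2. The top pair exceeded at least 97.0% of the 10375 genes in mean level, and Orai2, the lowest, exceeded 23.4%. Without values per mouse, no neighbouring pair in this order can be tested, and amplification by separate primer pairs adds an unknown factor between genes. In Saline alone, Itpr1 (5.04) stood above Stim1 (4.88) and Stim2 (4.82), whereas in Meth it (3.97) stood below both (4.97 each) and below Atp2a3 (4.03) in the authors' deposited table.

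Because the spread between mice is unknown, each difference was also placed among genes of like level, those with a mean average within 0.5 log2 units. Of the 1772 genes like Itpr1 in level, 9.34% had a lower difference and 15.5% differed by at least as much in either direction. Atp2a3 lay above 90.9% of 1389 such genes, of which 24.6% differed by at least as much in either direction. Itpr3 lay above 76.0% and Itpr2 above 66.1% of the genes like them in level. The ORAI genes lay at percentiles 23.9 (Orai1), 36.3 (Orai2) and 19.3 (Orai3). All 10 genes stood inside the 5th to 95th percentile of genes of like level, and Itpr2, Stim1, Stim2, Orai2 and Atp2a2 also lay between the quartiles. These percentiles describe the table and are not tests.

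**Figure D3:**
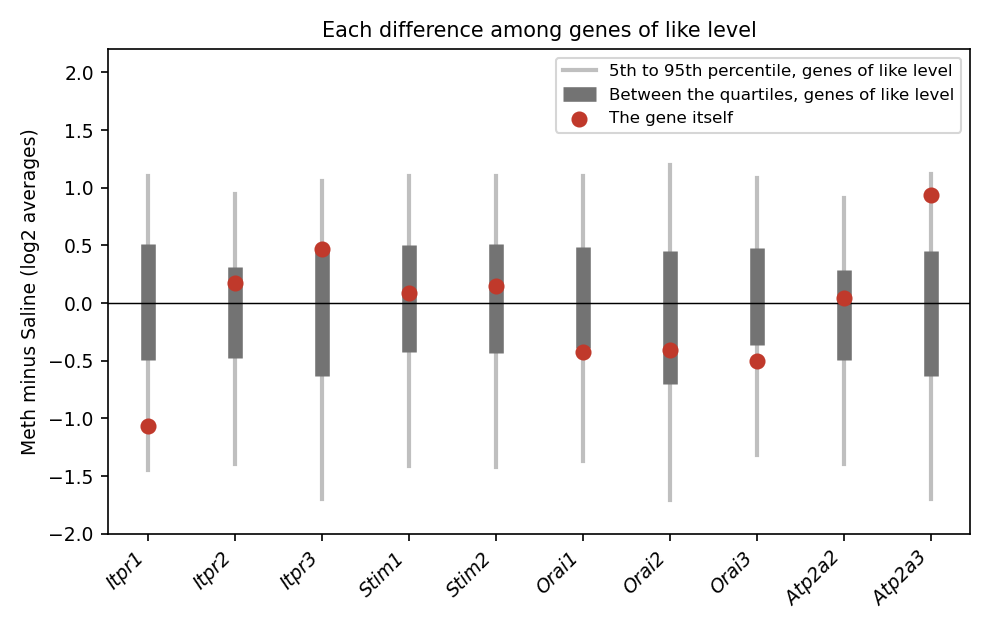
Meth minus Saline difference of the deposited log2 averages for each of the 10 genes (red circles), beside the 5th to 95th percentile (thin grey) and the range between the quartiles (thick grey) of genes with a mean level within 0.5 log2 units. All 10 circles lie inside the thin bars; Itpr1 at -1.07 and Atp2a3 at 0.94 lie nearest their ends.

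The sorted cells carried the microglial identity of their labels. All 12 microglial marker genes were listed at 6.81 or above in Meth and at 7.52 or above in Saline, by the authors' deposited table. Their share of the summed linear value was 2.98% in Meth and 5.07% in Saline, with 4 genes higher in Meth and 7 lower, none called. The 9 lists of markers of other cell types together took 0.129% in Meth and 0.0972% in Saline. Most of this was 1 gene, the scavenger receptor Stab1, at 9.94 in Meth and 9.15 in Saline, by the authors' deposited table, which held 97.2% and 96.3% of the sum of the border-associated macrophage list. In that list Pf4, Cd163, Lyve1 and Ms4a7 were at 0.34 or below in both groups. Mrc1, which encodes the CD206 that the sort selected against, was at 4.80 in Meth and 4.44 in Saline, by the authors' deposited table.

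Since Itpr1 is abundant in neurons, Itpr2 in astrocytes, and Atp2a3 in endothelium and blood cells, the corresponding marker lists are given beside them. Neuronal markers (13 genes, 7 higher and 4 lower in Meth, 6 of them below a log2 value of 1 in both groups) took 0.00131% in Meth and 0.000947% in Saline. One of them, Calb1, was called higher, at 0.46 in Meth and 0.09 in Saline, by the authors' deposited table (adjusted p = 0.0494). Stmn2 was at 1.97 in Meth and 0.92 in Saline and Gad1 at 1.56 and 0.21, neither called, while Snap25 was at 0.71 and 1.70, Rbfox3 at 0.04 in both and Slc17a6 listed at 0 in the authors' deposited table. The neuronal sum was higher in Meth and the Itpr1 average lower. Pcp2, the largest gene of the list in Saline with 27.2% of its sum (10.5% in Meth), was lower in Meth, at 1.23 against 1.85 in Saline. No gene of the list passed 1.97 in Meth or 1.85 in Saline, so the direction of its sum rests on low values. The astrocyte list (11 genes, 6 higher and 4 lower, 5 below 1 in both groups, none called) took 0.00641% in Meth and 0.0153% in Saline. Its sum was mostly the glutamate transporter gene Slc1a3, at 5.21 in Meth and 7.02 in Saline, by the authors' deposited table, with 57.2% and 83.4% of the list. Aqp4 was at 0.49 and 0.35 and Gfap at 0.10 and 0.24 in the authors' deposited table.

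Endothelial markers (8 genes, 3 higher and 4 lower, 5 below 1 in both groups) took 0.00797% in Meth and 0.00968% in Saline, of which Pecam1, at 6.25 and 6.44, made up 96.1% and 87.6%. Within the list the authors' deposited table had Cdh5 at 1.31 in Meth and 3.11 in Saline, Cldn5 at 0.08 and 0.07, and, called higher, Emcn at 0.20 and -0.10 (adjusted p = 6.04e-05). Monocyte and neutrophil markers (8 genes, 1 higher and 5 lower, 6 below 1 in both groups) took 0.00024% in Meth and 0.000651% in Saline, with Plac8 at 0.36 and 2.15 and, called higher, Cxcr2 at 0.07 and -0.03 in the authors' deposited table. For platelet and erythroid markers (5 genes, 1 higher and 3 lower, 4 below 1 in both groups) the shares were 0.000954% in Meth and 0.00147% in Saline. Of these sums 1 gene, Gp9, made up 96.7% and 97.4%. Lymphocyte markers (7 genes, 2 higher and 1 lower) reached at most 0.10 in Meth and 0.12 in Saline, by the authors' deposited table. The endothelial, monocyte and neutrophil, and platelet and erythroid sums were lower in Meth. The lymphocyte sum, at 1.52e-05% in Meth and 1.27e-05% in Saline, was higher in Meth, as the Atp2a3 average was. Most genes of these lists were below 1 in both groups. In bulk RNA, fewer cells of a type and less RNA per cell cannot be told apart, and the part of these cells in the differences of Itpr1, Itpr2 and Atp2a3 was not tested.

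The genes around the pathway were taken from 10 lists of calcium genes, with 158 of 164 listed genes in the authors' deposited table. Of these, 3 were called higher and 2 lower in Meth, where 2.15% of all genes were called higher and 0.0878% lower. Tpcn2 and Srl were known to be called when the lists were drawn up, so these counts lend the lists no support. The median log2 difference was -0.01, against 0.00 over all genes. At an average of at least 1 in either group there were 110 of them, of which 44 were higher and 66 lower, and 3 were called. Their median was -0.12, against 0.02 over the 10375 genes, of which 5256 were higher and 5058 lower. At an unadjusted p under 0.05, 7 of the 110 were higher and 11 lower in the authors' deposited table, where 6.46% and 8.19% of the 10375 genes were.

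Upstream of the IP3 receptors, 0 of 18 phospholipase C and Gq genes and 0 of 12 genes of IP3 metabolism were called, with median log2 differences of -0.02 and -0.08. Plcl1, a phospholipase C-like protein that binds IP3 without catalytic activity, was listed at 6.76 in Meth and 7.67 in Saline, by the authors' deposited table, with p = 0.0499 before and 0.4923 after adjustment. Plcb2, the phospholipase C of blood cells that Gq and Gi pathways activate, was at 7.04 in Meth and 6.80 in Saline, and the Gq family gene Gna11 at 4.06 and 3.83 in the authors' deposited table. Of the enzymes in the second list, the authors' deposited table listed the kinase Ippk at 3.69 in Meth and 3.02 in Saline, the monophosphatase Impa2 at 3.44 and 2.86, and the lipid phosphatase Inpp4b at 6.50 and 7.51.

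Among 19 regulators of the IP3 receptors, 1 was called, in the lower direction, and the list median was 0.00. Bcl2l1, which encodes the survival protein Bcl-xL that binds IP3 receptors, was lower at 6.85 in Meth and 7.10 in Saline, by the authors' deposited table (1.19-fold lower, adjusted p = 0.0280). Erlin2, part of the complex that directs active IP3 receptors to degradation, was at 5.31 in Meth and 5.53 in Saline with an unadjusted p of 0.0355, and the receptor-interacting protein relative Itpripl2 at 7.84 and 7.61 in the authors' deposited table.

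Regulators of store-operated entry included Saraf, whose product promotes the slow inactivation of store-operated entry. Saraf was listed at 7.42 in Meth and 8.90 in Saline, by the authors' deposited table, a 2.78-fold lower value with an unadjusted p of 0.0117 that missed the threshold after adjustment (adjusted p = 0.2764). Tmem110, which encodes the STIM activator STIMATE, was at 4.36 in Meth and 4.93 in Saline, by the authors' deposited table, with p = 0.0161 before and 0.3263 after adjustment. Cav1, the caveolin gene, abundant in endothelium, stood at 1.43 in Meth and 2.05 in Saline, by the authors' deposited table, with p = 0.0138 before and 0.3058 after adjustment. Endothelial markers were split in direction, 3 higher and 4 lower, but the higher ones were below 1 in both groups. The 3 that reached 1 in either group were lower in Meth, as Cav1 was: Cdh5 (1.31 in Meth, 3.11 in Saline), Kdr (0.61, 2.27) and Pecam1 (6.25, 6.44). The part of endothelial cells in the Cav1 difference was not tested. Of the 19 genes in this list, 2 were called higher, both near 0, among them the junction protein gene Jph1 at 0.27 in Meth and -0.02 in Saline, by the authors' deposited table (adjusted p = 0.0014). Averages below 0 occurred for 14 genes in Meth and for 1425 in Saline. The ryanodine receptors Ryr1, Ryr2 and Ryr3, the alternative ER release channels, were at 0.09 or below in both groups; these were picked out after their values were seen, and a poor primer pair gives the same low value.

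Within the ER, 1 of 21 lumenal and calcium-binding genes was called, in the lower direction, and the list median was -0.16. Srl, which encodes sarcalumenin, a calcium-binding protein of the sarcoplasmic reticulum known for stabilising SERCA in muscle, was lower at 2.77 in Meth and 4.25 in Saline, by the authors' deposited table (2.79-fold lower, adjusted p = 0.0332). Calr3, a calreticulin relative of the testis, was at 1.68 in Meth and 0.64 in Saline (adjusted p = 0.0748), and the disulfide isomerase gene P4hb at 9.12 and 8.81 (unadjusted p = 0.0122) in the authors' deposited table. Among 12 other ER pumps, leaks and release channels, 0 were called, with the counter-ion channel genes Tmem38a at 2.32 in Meth and 2.80 in Saline, with an unadjusted p of 0.0103, and Tmem38b at 3.57 and 4.02, and Tmx1, a thiol oxidoreductase of the ER membrane, at 7.34 and 7.83 in the authors' deposited table.

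Calcium export and mitochondrial uptake had 0 called genes of 13 and 11. Atp2c1, the calcium and manganese pump of the Golgi, was listed at 7.24 in Meth and 8.87 in Saline, by the authors' deposited table (3.08-fold lower, unadjusted p = 0.0418, adjusted p = 0.4623), and the exchanger Slc24a3 at 3.61 and 4.96. Of the 13 export genes, 8 were lower in Meth, 0 higher and 5 equal, where 7266 of all 23930 genes were lower, 8790 higher and 7874 equal. Only 6 of the 13 reached an average of 1 in either group, all lower, where 5058 of the 10375 genes at that level were lower. The 5 equal ones were at 0.02 or below. A plasma membrane pump gene, Atp2b3, was at 0.52 in Meth and 1.02 in Saline, by the authors' deposited table. The inner membrane protein gene Letm1 was at 4.30 in Meth and 5.55 in Saline, and the uniporter subunit gene Smdt1 at 6.98 and 6.26 in the authors' deposited table.

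Endolysosomal channels had 1 of 7 genes called, higher in Meth, and a list median of 0.43, which was 0.25 with the trend in transcript GC content and length removed and 0.28 as a mean. Tpcn2, which encodes a two-pore channel of the endolysosome, was higher at 6.30 in Meth and 5.11 in Saline, by the authors' deposited table (2.27-fold higher, adjusted p = 0.0116). Its relative Tpcn1 was at 8.0 in Meth and 7.57 in Saline, and the ATP-gated channel gene P2rx4 at 3.96 and 4.89 in the authors' deposited table, neither called. Downstream, 0 of 26 genes of calmodulin, calcineurin and NFAT signalling were called. Calm2, one of the genes for the calcium sensor calmodulin, was listed at 8.26 in Meth and 9.86 in Saline, by the authors' deposited table (3.04-fold lower, unadjusted p = 0.0337, adjusted p = 0.4294); the calmodulin genes encode the same protein and are alike in sequence, and which reads each amplicon could take was not examined. Rcan1, a calcineurin regulator that calcineurin and NFAT induce, was at 5.66 in Meth and 5.33 in Saline with an unadjusted p of 0.0329, and the kinase gene Camkk2 at 6.68 and 6.28 (unadjusted p = 0.0333) in the authors' deposited table.

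**Figure D4:**
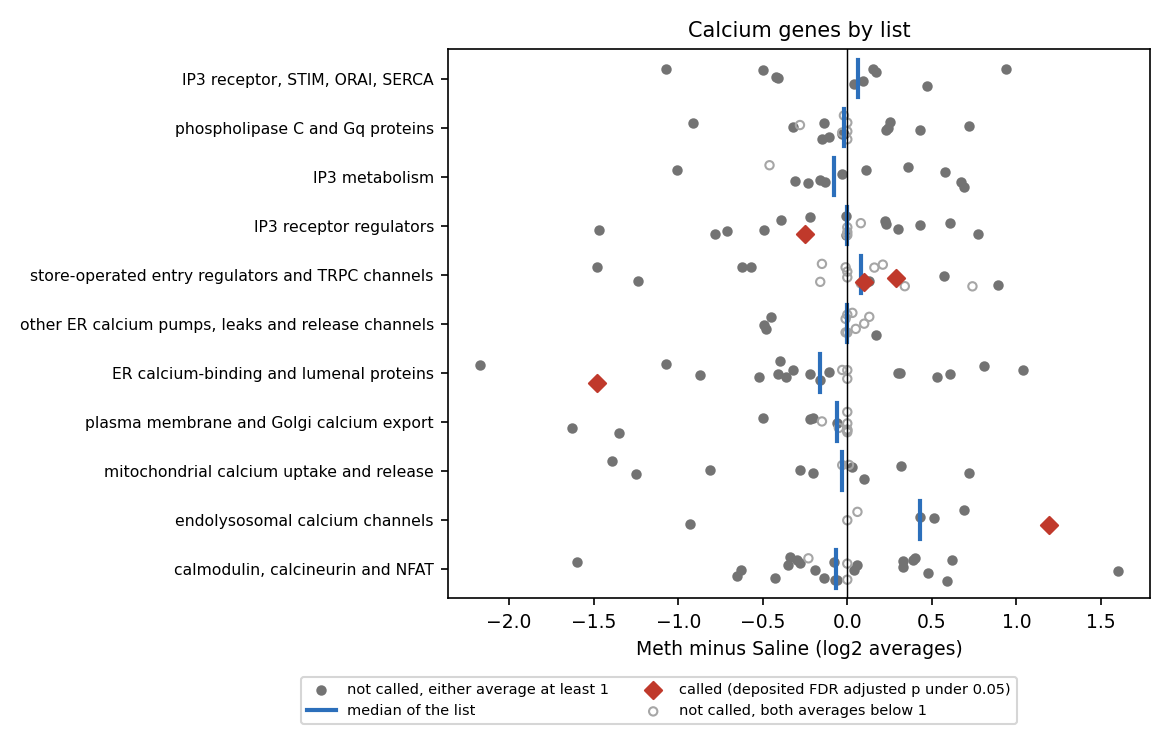
Meth minus Saline differences of the deposited log2 averages for the 10 genes (top row) and for the 158 genes of the 10 calcium lists, 1 point per gene, with red diamonds for genes called in the authors' deposited table and a blue line at each median. Bcl2l1, Jph1, Srl and Tpcn2 are among the 5 diamonds; the top row has none.

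The 3 called list genes with an average of at least 1 kept no call when a Benjamini-Hochberg adjustment of the authors' p-values was run over the 10375 genes at that level only. The adjusted p was then 0.189 for Tpcn2, 0.239 for Bcl2l1 and 0.259 for Srl, and 0 of all 10375 genes passed.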

How the data were processed

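RNA of sorted microglia from 6 mice was read with the AmpliSeq mouse transcriptome panel on an Ion S5XL sequencer, per the labels' protocols. The steps between reads and table (alignment, build, counting, scaling, model) are not stated in any source used here, so no coordinates are printed. The authors' deposited table gives, per the file headers, log2 group averages, a fold change, a p-value and an FDR adjusted p-value. The deposited fold, a score here, is a signed ratio of Meth over Saline, negative where Saline is higher, and matches the difference of log2 averages within 0.0166. The linear values sum to 981392 in Meth and 1012049 in Saline, so the scale is read as log2 of scaled reads plus 1. Depth is unknown.

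No model could be refitted. Calls used the deposited FDR adjusted p under 0.05. Benjamini-Hochberg adjustment, like-level percentiles, shares and list counts were computed here with Python 3.11.15, numpy 2.4.6 and pandas 2.3.3. The adjustment, the percentiles and the removal of the GC content and length trend were tested on simulated data. Shares and list counts were not. GC content and length came from the longest GENCODE M21 transcript (matched for 10 of 10 genes), not from the amplicon of each gene. Trends were removed as medians over 20 bins. The genes and lists were chosen with earlier results of these data known. Named list genes were all called ones and the 3 with the smallest p at an average of at least 1, of which some are not reported here. No genes of like pattern are named, since 2 averages give 1 difference. Rnf170, Cracr2b, Trpc2, Vdac3, Calm3 and Ppp3r1 were not analysed here.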

Additional observations from a re-analysis of the deposited data

How the results depend on the processing

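The count of 0 called among the 10 genes was 0 under every alternative tried: adjustment over genes at an average of 1 or at 3 and above, an FDR of 0.1, and an unadjusted p under 0.05. The median difference of the 10 (0.07) was 0.025 when centred on genes at 3 or above and 0.041 once the dependence on transcript GC content and length was taken out. That removal turned Stim1 to -0.025, against 0.09, and moved Itpr3 to 0.20 (0.47) and Stim2 to 0.26 (0.15). It also moved Orai1 to -0.71 (-0.42) and Atp2a2 to 0.108 (0.04), and the cause was not tested. The GC content and length were those of whole transcripts, not of the amplicons that were read. A pseudocount of 10, which shrinks low genes by construction, gave 0.533 for Atp2a3 (0.94), 0.277 for Itpr3 (0.47) and -0.188 for Orai2 (-0.41). Centring on genes at 3 or above gave 0.05 for Stim1 and 0.00 for Atp2a2, and on genes at 1 or above 0.02 for Atp2a2. With the pseudocount of 1 kept, the share of Orai2 differed by 0.27 percentage points, against 0.0078, and no other share moved by over 1.5 times. The 5 called list genes became 0 with adjustment over genes at 1 or at 3 and above, fewer genes being tested, and 20 at an unadjusted p under 0.05, all chosen after seeing the data; the count was 3 at an average of at least 1 and 3 at 3 or above. List medians changed sign for store-operated entry regulators (0.08; -0.57 at 1 or above, -0.22 at 3 or above, mean -0.038), IP3 metabolism (-0.08; mean 0.0067) and calmodulin, calcineurin and NFAT (-0.07; 0.014 with that trend removed). No paired analysis was possible because the table has no values per mouse, and leaving out replicates was not run for the same reason.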
